A study of Mus musculus with 2 samples.

Results

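Interferon gamma (Ifng), the 2 chains of its receptor (Ifngr1 and Ifngr2), the receptor's kinases (Jak1 and Jak2) and 4 genes of the early response (Irf1, Irf8, Socs1 and Batf2) were followed through the cells of a mouse tumour. These 9 genes were taken by symbol from the 19070 genes of the deposited matrices, and all 9, each protein coding, were present in both libraries. The tumours were subcutaneous grafts of LLC cells, the Lewis lung carcinoma line of mouse origin. The control library came from tumours of mice given IgG2a isotype antibody, and the anti-PD-1 library from tumours of mice given an antibody to PD-1, which restrains T cells when engaged. The series text calls the control cells untreated and places collection of the anti-PD-1 cells 7 days after the antibody. The mouse strain, age and number of mice are not given in the sources used here.

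Interferon gamma is a cytokine made chiefly by activated T cells and natural killer (NK) cells. It binds a receptor whose Ifngr1 chain holds the ligand, and whose Ifngr2 chain brings in JAK2 beside the JAK1 on Ifngr1. The signal reaches the nucleus and acts through gamma-activated sites in target promoters. Irf1 is an early target and itself a transcription factor, while Socs1 is induced by the same route and inhibits the kinases. Nearly all nucleated cells carry the receptor, so a tumour's own cells, its macrophages and its stroma can all answer.

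There was 1 library per group, so no test of the treatment was possible. Differences between the libraries cannot be told apart from differences between animals, preparations or collection times. The control library held 8395 cells after filtering and 113219015 UMIs (unique molecular identifiers, each counting 1 captured molecule), and the anti-PD-1 library 9422 cells and 115405551 UMIs. Median depth was 7473 and 8744 UMIs per cell. The libraries shared 107 barcode sequences. Red cell genes took 745 of each 1e+06 UMIs (CPM) in control, against 62.1 in anti-PD-1. Cells took their class from marker UMIs, and none of the 9 genes was a marker; a class name ends in "-like" because it rests on RNA alone. LLC-like cells numbered 3586 in control and 4746 in anti-PD-1, macrophage-like 1064 and 1188, monocyte-like 446 and 531, T cell-like 270 and 108, NK cell-like 81 and 118, neutrophil-like 159 and 127, dendritic cell-like 85 and 113, and fibroblast-like 85 and 142. The LLC markers summed to 1247 and 1392 CPM in LLC-like cells, and the T cell markers to 5784 and 5996 CPM in T cell-like cells against 28.5 and 7.34 CPM in LLC-like cells. Cells with markers of several classes numbered 355 and 293, and 2200 and 2024 cells had too few markers for a name.

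The promoters of 3 early response genes are shown because their letters hold motifs of the pathway. RefSeq promoters (build GRCm38.p6) were found for 8 of the 9 genes, all but Batf2. Across both strands, 4 motifs were searched in 300-base promoters: the gamma-activated site TTCNNNGAA, held by 8.30% of 32851 promoters; GAAA, any 2 bases and GAAA again, bound by interferon regulatory factors, held by 3.44%; GGGA, any base and TTTCC, of NF-kappaB, held by 0.411%; and TTCCNGGAA, a narrower form contained in TTCNNNGAA, held by 1.15%. The capitals below mark every match, and each stretch runs 5′ to 3′ on the gene's own strand, upstream of the start site.
Irf1, chr11:53769884-53769972, plus strand: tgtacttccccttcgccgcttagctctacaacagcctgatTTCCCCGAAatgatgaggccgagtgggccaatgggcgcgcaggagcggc
Irf8, chr8:120736147-120736253, plus strand: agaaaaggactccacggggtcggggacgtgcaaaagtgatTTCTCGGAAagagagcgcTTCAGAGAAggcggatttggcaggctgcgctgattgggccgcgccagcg
Socs1, chr16:10785564-10785659, minus strand: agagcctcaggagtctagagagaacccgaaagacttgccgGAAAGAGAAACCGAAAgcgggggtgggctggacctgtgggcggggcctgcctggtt
Irf1 held 1 gamma-activated site, from -90 to -82 of its start. Irf8 held 2, from -171 to -163 and from -153 to -145. In Socs1 the capitals are 2 overlapping matches of the interferon regulatory factor motif, from -83 to -74 and from -77 to -68. Besides these, the Ifng window held TTCAGAGAA at its far end, from -249 to -241, and the Ifngr2 window held GGAAAGTCCC, the NF-kappaB motif on the other strand, from -75 to -66. No match of the 4 motifs was found in the windows of Ifngr1, Jak1 and Jak2, nor in the further promoter that RefSeq lists for Irf1 and for Irf8. A match is a run of letters and not a measured site.

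Ifng, which encodes the cytokine, lies on chromosome 10 from 118441046 to 118445892 (mm10). The whole libraries held few of its molecules, with 239 UMIs in control, against 125 in anti-PD-1, or 2.11 and 1.08 CPM (log2 ratio of anti-PD-1 over control -0.96, 95% interval -1.29 to -0.64). All intervals here are exact and cover counting error only. Per UMI sequenced, it was concentrated in lymphocytes. T cell-like cells stood at 141 CPM in control (61 UMIs, 108 to 181) and 59.0 CPM in anti-PD-1 (9 UMIs, 27.0 to 112). NK cell-like cells stood at 71.0 CPM in control (13 UMIs, 37.8 to 121) and 97.4 CPM in anti-PD-1 (21 UMIs, 60.3 to 149). T cell-like and NK cell-like intervals overlapped within each library, so their order is not fixed by these counts. LLC-like cells were at 1.21 and 0.65 CPM and macrophage-like cells at 1.52 and 1.63 CPM. No Ifng UMI was found in monocyte-like cells, where 3 UMIs would be 2.80 CPM in control, against 2.40 in anti-PD-1, or in dendritic cell-like cells, where 3 UMIs would be 16.3 and 11.2 CPM. Neutrophil-like cells held 3 UMIs in control (22.6 CPM, 4.66 to 66.1), against 0 in anti-PD-1. That control interval overlapped the one of NK cell-like cells.

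**Figure D1:**
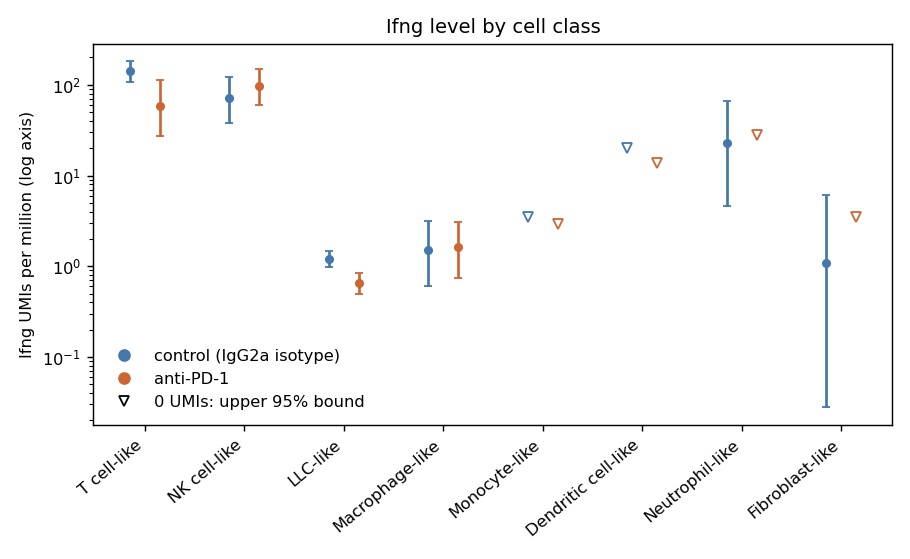
Ifng level (CPM, log axis) in 8 cell classes of the control and anti-PD-1 libraries, with exact 95% counting intervals; open triangles mark the upper bound where no UMI was found. T cell-like and NK cell-like points lie between 59.0 and 141 CPM, while LLC-like and macrophage-like points lie at or below 1.63 CPM.

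T cell-like and NK cell-like cells together made up 4.18% of control cells and 0.543% of control UMIs but held 31.0% of the Ifng UMIs (74 of 239, exact interval 25.2 to 37.2). In anti-PD-1 they were 2.40% of cells and held 24.0% (30 of 125, 16.8 to 32.5). In control most of this was T cell-like, with 25.5% of all Ifng UMIs against 5.44% in NK cell-like cells. The balance was the other way in anti-PD-1, with 7.20% in T cell-like and 16.8% in NK cell-like cells. Named by Leiden cluster instead, lymphocytes held 43.1% and 43.2%, and with all listed markers in the naming rule the anti-PD-1 share was 13.6%.

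Within T cell-like cells the Ifng level was lower in the anti-PD-1 library, with a log2 ratio of -1.26 (-2.46 to -0.24) against a median gene of this class at -0.05. The value rests on few cells. UMIs of Ifng were seen in 31 of 270 control cells (11.5%, 7.93 to 15.9) and 7 of 108 anti-PD-1 cells (6.48%, 2.64 to 12.9), and 1 control barcode held 12 of the 61 UMIs. Without the barcode richest in Ifng in each library the log2 ratio was -1.32 (-2.70 to -0.16). With each cell thinned to 1000 UMIs the shares were 6.19% (of 194 cells, control) and 5.41% (of 74, anti-PD-1), with 76 and 34 cells too shallow to use. Thinned to 2000 UMIs, where 18 and 3 Ifng UMIs were left, the log2 ratio was -0.14. Median depth was 1314 and 1197 UMIs per T cell-like cell, against 18094 and 14768 in LLC-like cells, of which 0.167% and 0.021% held an Ifng UMI after thinning to 1000.

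The T cell-like populations also differed in make-up. Cells with a Cd8a or Cd8b1 UMI and no Cd4 or Foxp3 UMI, the CD8 type that includes killer T cells, were 63.0% of control T cell-like cells (170 cells) and 25.0% of anti-PD-1 ones (27 cells). They held 60 of the 61 control Ifng UMIs, at 204 CPM (155 to 262), and 2 of the 9 anti-PD-1 UMIs, at 53.6 CPM (6.49 to 194). Cells with no UMI of Cd8a, Cd8b1, Cd4 or Foxp3 made up 28.5% and 52.8%, and in them Ifng stood at 9.95 CPM in control (1 UMI) and 82.7 CPM in anti-PD-1 (7 UMIs), with overlapping intervals. Foxp3 cells, which include regulatory T cells, numbered 14 and 10 and held 0 Ifng UMIs, as did the 6 and 14 cells with Cd4 alone. The upper bounds were 176 and 282 CPM for Foxp3 cells and 399 and 211 CPM for Cd4 cells. These bounds lie above the level of all T cell-like cells, so such few cells cannot show a lack of Ifng. The control barcode with 12 UMIs also carried a gamma delta T cell receptor gene. The part of this make-up in the Ifng difference was not tested.

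NK cell-like cells, which kill without prior priming, did not show the lower level. Their log2 ratio was 0.46, with an interval from -0.61 to 1.58. A single control barcode held 10 of the 13 UMIs. Without the richest barcode of each library, 3 and 15 UMIs remained and the log2 ratio was 2.09 (0.26 to 4.52), and named by Leiden cluster it was 2.08. It was -0.17 with cells weighted equally and -0.09 without cells over 3 times the median depth, so the direction in NK cell-like cells depends on how barcodes are counted. Whether the T cell-like and NK cell-like ratios differ was not tested.

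T cell-like barcodes with an Ifng UMI differed from the others in some effector genes of the control library. The 31 such barcodes had 4465 CPM of Gzmb, a death-inducing protease, against 1922 in the 239 without. Prf1, the pore-forming perforin, was at 1865 against 687 CPM. The chemokines Ccl3 and Ccl4 were at 919 against 150 and at 1371 against 230 CPM. Other genes of the list had lower values in the barcodes with an Ifng UMI, with Ccl5 at 283 against 385, Gzma at 14.1 against 41.5 and Tnf at 28.3 against 36.0 CPM. In anti-PD-1 the 7 barcodes with an Ifng UMI had 3614 CPM of Gzmb against 3429, and 0 of Ccl3 against 29.0. Barcodes with an Ifng UMI were deeper, with medians of 2199 against 1268 UMIs in control, and 1664 against 1181 in anti-PD-1. In control, 30 of the 31 were also of the CD8 type, while the 239 without included the other types. The part of depth and of cell type in these values was not tested.

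LLC-like cells held 107 Ifng UMIs in control, against 58 in anti-PD-1, which was 44.8% and 46.4% of each library's total, from 78.0% and 77.1% of all its UMIs. Their level was 0.858% of the T cell-like level in control and 1.10% in anti-PD-1, where the summed T cell markers stood at 0.493% and 0.122%. Against the NK cell-like level it was 1.71% and 0.669%, where the summed NK cell markers stood at 0.244% and 0.149%. Of the LLC-like barcodes with an Ifng UMI, 69.9% (58 of 83) in control and 11 of 22 in anti-PD-1 also held a T or NK marker UMI, against 32.2% and 12.6% of those without. They were also deeper, at medians of 32090 against 17933 and 24060 against 14727 UMIs. In anti-PD-1 a single barcode held 21 of the 58 UMIs. Of the 107 and 58 UMIs, 17 and 9 lay in the 55 and 36 LLC-like barcodes that clustered with T or NK cells, at 12.2 and 10.4 CPM, while in the LLC clusters the level was 0.955 and 0.562 CPM (81 and 49 UMIs). The log2 ratio in all LLC-like cells was -0.90 (-1.38 to -0.42), -1.46 without the richest barcode of each library, and -1.50 among cells with no T or NK marker UMI, where 26 and 14 Ifng UMIs remained. It was -0.27 at a halved marker threshold, and with clusters weighted equally it was 0.52, the cluster of that single barcode then counting fully. The part of T and NK cell RNA in these values was not tested.

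Of 13 genes that induce Ifng or receive the inducing signals, 8 could be measured in T cell-like cells (at least 20 UMIs over both libraries). Their median log2 ratio was -0.17. Tbx21, the transcription factor T-bet that drives Ifng, was at 243 CPM in control (105 UMIs), against 111 in anti-PD-1 (17 UMIs), a log2 ratio of -1.13 (-1.96 to -0.38). Il12rb1, a chain of the interleukin 12 receptor, was at 192 and 354 CPM (0.88, 0.36 to 1.39). In NK cell-like cells 9 were measured, with a median of 0.48 against a median gene of 0.18. Il18r1, a chain of the interleukin 18 receptor, was there at 251 and 580 CPM (1.21, 0.71 to 1.73). Among 9 cytotoxic genes, 7 were measured in T cell-like cells, with a median of -0.39. Ccl3 was at 276 and 26.2 CPM (-3.39, from 119 and 4 UMIs) and Ccl4 at 417 and 190 CPM (-1.13, -1.75 to -0.56). Gzma, another granule protease, was at 37.0 and 111 CPM (1.59, 0.51 to 2.67) and the cytokine gene Tnf at 34.7 and 85.2 CPM (1.29, 0.10 to 2.47), each from under 20 UMIs per library. The directions within the list were thus mixed. The part of the lower CD8 share in the T cell-like ratios of these listed genes was not tested. No other naming or depth of cells was tried for them.

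Ifngr1, the ligand-binding chain (chromosome 10, 19591949 to 19610229), was highest in the cells that also held Ifng. NK cell-like cells stood at 1725 CPM in control, against 2422 in anti-PD-1, and T cell-like cells at 1276 and 2241 CPM. Monocyte-like cells followed at 661 and 777, dendritic cell-like at 621 and 671, macrophage-like at 354 and 465, fibroblast-like at 193 and 247, neutrophil-like at 143 and 191, and LLC-like at 97.0 and 100 CPM. LLC-like cells thus had the lowest level in both libraries, although the control interval (94.9 to 99.0) overlapped that of neutrophil-like cells. Monocyte-like and dendritic cell-like intervals overlapped in both libraries, and T cell-like and NK cell-like intervals in anti-PD-1.

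Ifngr2, the signalling chain (chromosome 16, 91547072 to 91565623), had a different order. It was highest in monocyte-like cells (205 and 262 CPM), dendritic cell-like cells (185 and 247) and macrophage-like cells (159 and 200), whose neighbouring intervals overlapped. NK cell-like cells were lowest, at 16.4 and 41.8 CPM from 3 and 9 UMIs, and T cell-like cells stood at 39.4 and 59.0 CPM from 17 and 9 UMIs. LLC-like cells were at 47.9 and 53.1 CPM and fibroblast-like cells at 53.8 and 49.3 CPM, and their intervals overlapped those of T cell-like cells.

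**Figure D2:**
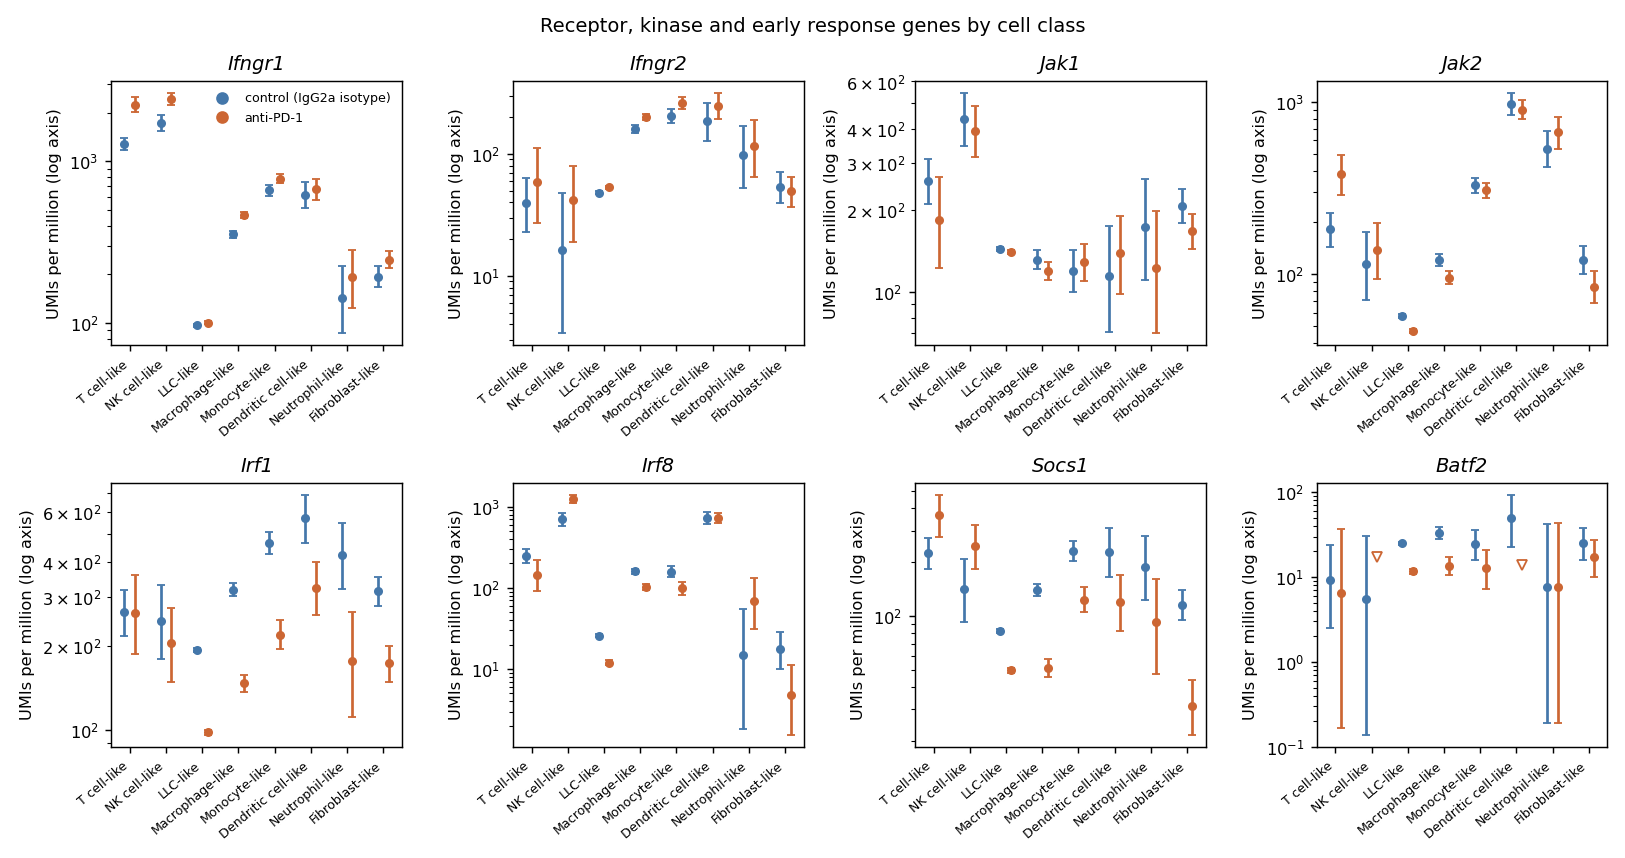
Levels (CPM, log axes) of the receptor chains, kinases and early response genes in 8 cell classes, control and anti-PD-1, with exact 95% counting intervals; open triangles mark the upper bound where no UMI was found. Ifngr1 is highest in NK cell-like and T cell-like cells, where Ifngr2 lies between 16.4 and 59.0 CPM, and Irf1 in LLC-like cells is 194 CPM in control, against 98.3 in anti-PD-1.

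The ratio of Ifngr1 to Ifngr2 UMIs set lymphocytes apart from the other classes. It was 32.4 in control and 38.0 in anti-PD-1 T cell-like cells, and 105 and 58.0 in NK cell-like cells. In the other 6 classes compared it lay between 1.46 and 5, with LLC-like cells at 2.02 and 1.89 and macrophage-like cells at 2.22 and 2.33. Capture can differ between genes, so the ratio can be compared across classes but does not give their relative abundance. After thinning to 1000 UMIs, 63.9% of T cell-like cells in control, and 77.0% in anti-PD-1, held an Ifngr1 UMI, but 3.09% and 6.76% an Ifngr2 UMI. Macrophage-like cells held Ifngr1 in 25.6% and 36.7% and Ifngr2 in 16.5% and 18.7%, and LLC-like cells Ifngr1 in 9.88% and 9.86% and Ifngr2 in 4.52% and 5.86%. A UMI of both chains was seen in 4.04% and 7.02% of macrophage-like cells and 0.502% and 0.611% of LLC-like cells at this depth. In T cell-like cells the shares were 2.58% and 5.41% (5 and 4 cells), and in NK cell-like cells 1.52% and 3.03% (1 and 3 cells). Monocyte-like cells had 8.09% and 10.4%, dendritic cell-like cells 11.9% and 4.81%, and fibroblast-like cells 1.22% and 0.719%. Neutrophil-like cells had 0% and 2.63%, from 28 and 38 cells.

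Between the libraries the receptor differed little in LLC-like cells, with log2 ratios of 0.05 (0.01 to 0.09) for Ifngr1 and 0.15 (0.09 to 0.21) for Ifngr2. Macrophage-like cells had more of both chains in anti-PD-1, with 0.39 (0.30 to 0.48) and 0.33 (0.19 to 0.46), and monocyte-like cells 0.23 (0.09 to 0.38) and 0.36 (0.10 to 0.61). Ifngr1 was also higher in NK cell-like cells, at 0.49 (0.28 to 0.70), beside a median gene at 0.18, and in T cell-like cells, at 0.81 (0.61 to 1.01). The NK cell-like value was 0.11 at a doubled marker threshold and 0.19 without cells over 3 times the median depth. The T cell-like value was 0.12 when cells were named by Leiden cluster, and the part of the lower CD8 share in the T cell-like ratios of this and the following genes was not tested. The type I interferon receptor chains Ifnar1 and Ifnar2, which bind interferon alpha and beta, stood at 0.05 and 0.04 in LLC-like cells and 0.33 and 0.22 in macrophage-like cells.

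Jak1, the kinase on Ifngr1 and on many other cytokine receptors (chromosome 4, 101152367 to 101265282), ran from 114 CPM in dendritic cell-like to 437 in NK cell-like cells of the control library, and from 119 in macrophage-like to 394 CPM in NK cell-like cells of anti-PD-1. All neighbours in the order below T cell-like cells overlapped in control. In LLC-like cells it stood at 143 and 140 CPM (log2 ratio -0.03, -0.07 to 0.01). Jak2, the kinase on Ifngr2 (chromosome 19, 29251828 to 29313080), was highest in dendritic cell-like cells, at 975 and 903 CPM, followed by neutrophil-like cells at 535 and 666 CPM. LLC-like cells again held the lowest level, 57.5 CPM in control, against 46.9 in anti-PD-1 (-0.30, -0.35 to -0.24). T cell-like cells were at 183 and 380 CPM (1.06, 0.54 to 1.56), a ratio that was 0.13 when cells were named by Leiden cluster.

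Irf1, the early target whose protein switches on antigen-presentation genes (chromosome 11, 53770014 to 53778374), was lower in anti-PD-1 in the tumour, myeloid and fibroblast classes but not detectably so in the lymphocytes as named here. LLC-like cells were at 194 CPM in control (17101 UMIs), against 98.3 in anti-PD-1 (8754 UMIs), a log2 ratio of -0.98 (-1.02 to -0.94). Macrophage-like cells were at 318 and 147 CPM (-1.11, -1.23 to -0.98) and monocyte-like cells at 466 and 220 CPM (-1.09, -1.31 to -0.87). Dendritic cell-like cells (572 and 322 CPM, -0.83), fibroblast-like cells (314 and 174 CPM, -0.86) and neutrophil-like cells (422 and 176 CPM, -1.26) also had intervals below 0. T cell-like cells stood at 264 and 262 CPM (-0.01, -0.57 to 0.52) and NK cell-like cells at 246 and 204 CPM (-0.27, -0.90 to 0.37). With T cells named by Leiden cluster the ratio was -0.73 (-1.02 to -0.45), an interval below 0. The intervals of the lymphocytes are wide, and whether their ratios differ from those of the other classes was not tested. The neutrophil-like and fibroblast-like ratios were -0.27 and -2.16 with Leiden naming, both still negative. The macrophage-like ratio was -1.72 when cells were named by Leiden cluster, and the monocyte-like ratio was -0.46 with all listed markers in the naming rule.

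Macrophage-like cells also differed in make-up, and the part of this in their ratios was not tested. Their summed macrophage markers stood at 14120 CPM in control, against 22028 in anti-PD-1. Cluster 15, where these markers were highest (21799 and 28679 CPM), held 370 and 561 of the cells, and cluster 6 held 137 and 93. Of the 4 clusters with at least 50 macrophage-like cells per library, 6 and 15 were macrophage clusters as a whole. Cluster 7 was a monocyte cluster and cluster 2 an LLC cluster, where the macrophage markers of these cells stood at 6685 and 11106 CPM. The part of barcodes holding several cells in cluster 2 was not tested. In each of the 4 clusters the interval of Irf1 lay below 0, with ratios from -1.86 (cluster 15) to -0.47 (cluster 7). Socs1 intervals also lay below 0 in all 4, from -1.88 to -0.97. Other members varied more. Batf2 intervals lay below 0 in all but cluster 7, and Irf8 intervals only in clusters 2 and 15. Ifngr1 intervals lay above 0 in all but cluster 2 (0.02), with 0.15 in cluster 15. Ifngr2 was at -0.05 in cluster 2, 0.03 in cluster 6 and 0.18 in cluster 15, each with an interval across 0.

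**Figure D3:**
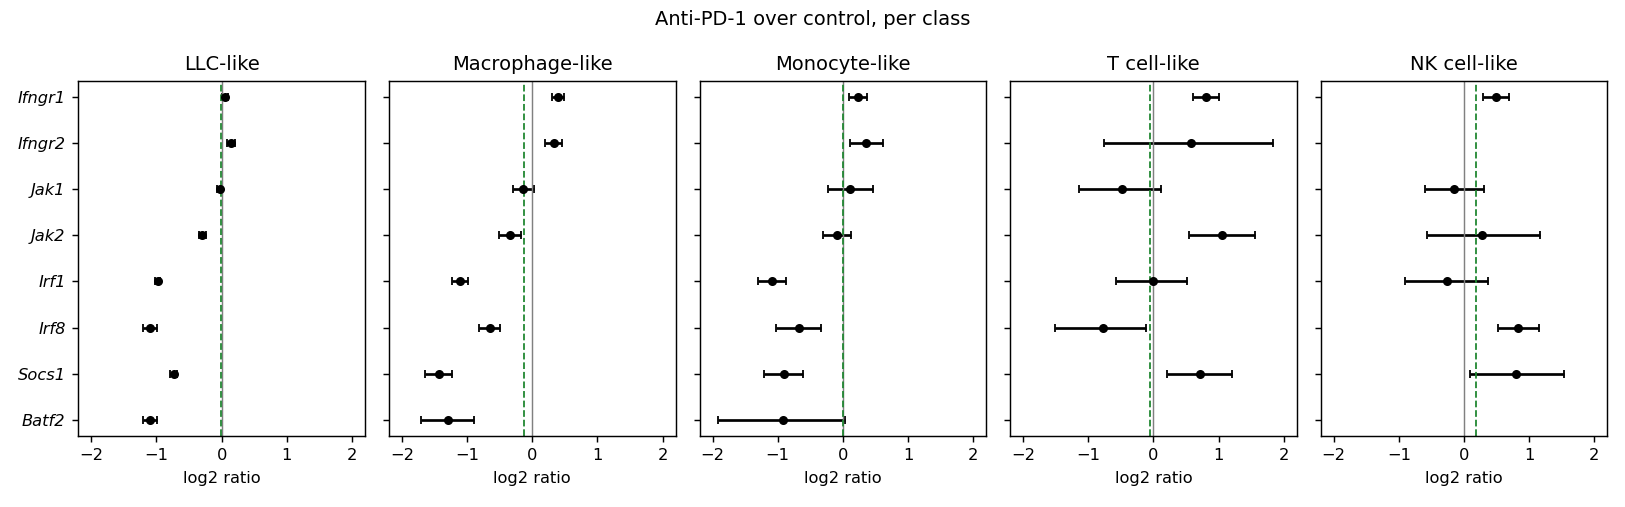
Log2 ratio of anti-PD-1 over control for the receptor, kinase and early response genes in 5 cell classes, with exact 95% counting intervals; genes with under 20 UMIs over both libraries are not drawn. The dashed green line is the median gene of the class. Irf1 lies at -0.98 in LLC-like, -1.11 in macrophage-like and -1.09 in monocyte-like cells, and at -0.01 in T cell-like cells.

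Control and anti-PD-1 LLC-like cells were spread differently over the clusters, so Irf1 was also compared within each cluster. Cluster 12 held 1282 control and 193 anti-PD-1 LLC-like cells, cluster 13 held 84 and 1006, and cluster 4 held 70 and 828. In each of the 8 clusters with at least 50 LLC-like cells per library the interval of Irf1 lay below 0, with log2 ratios between -1.21 and -0.50. Cluster 1 had the highest level, at 507 CPM in control, against 219 in anti-PD-1. Ifngr1 had an interval below 0 in 0 of the 8 clusters and above 0 in 3, with log2 ratios between -0.09 and 0.29. Irf1 may be among the genes that formed the clusters, so they are not independent of it.

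**Figure D4:**
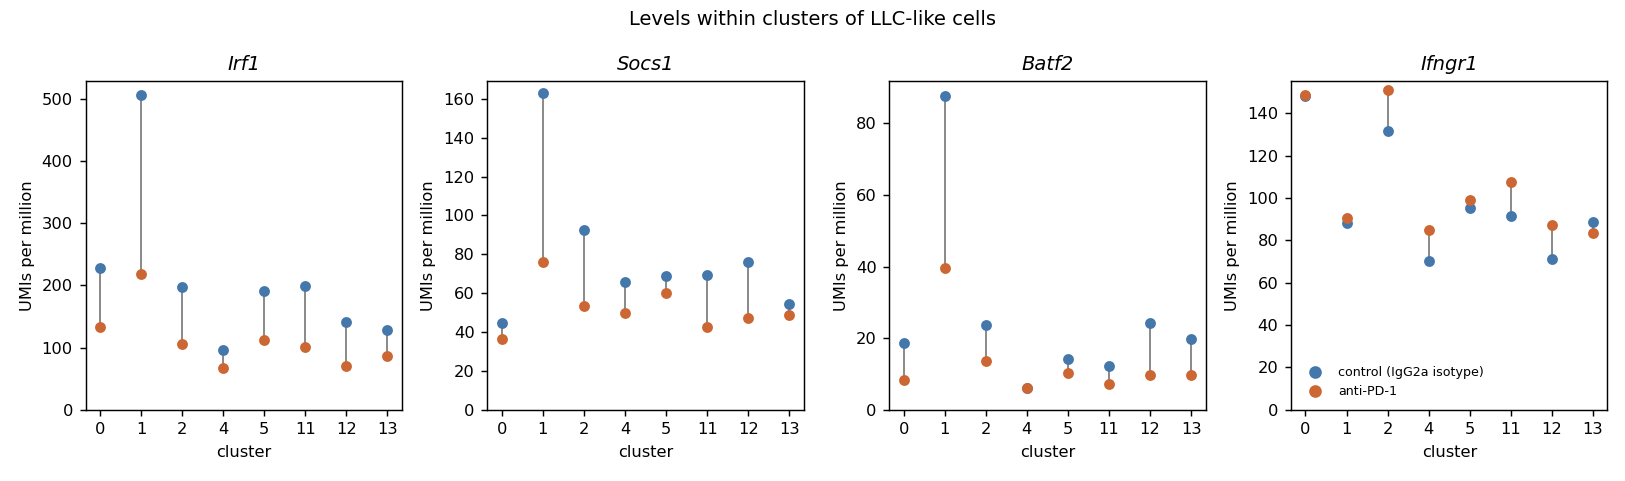
Levels (CPM) of Irf1, Socs1, Batf2 and Ifngr1 in 8 clusters of LLC-like cells, control and anti-PD-1 joined by a line. The Irf1 control point is above the anti-PD-1 point in each cluster, while Ifngr1 is between 70.3 and 151 CPM in all clusters and its anti-PD-1 point is the higher in all but cluster 13.

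The lower Irf1 level appeared both as more LLC-like cells without an Irf1 UMI and as fewer cells with several. With each LLC-like cell thinned to 5000 UMIs, which left out 89 control and 180 anti-PD-1 cells, the mean was 0.967 Irf1 UMIs in control, against 0.488 in anti-PD-1. Cells without an Irf1 UMI were 50.6% and 67.3% (17.8% and 37.2% before thinning). Cells with 1 UMI were 27.9% and 23.2%, and cells with at least 4 UMIs were 4.98% and 1.49%. Ifngr1 was missing in 62.2% and 61.1% of the same cells and Jak1 in 51.1% and 53.2%.

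**Figure D5:**
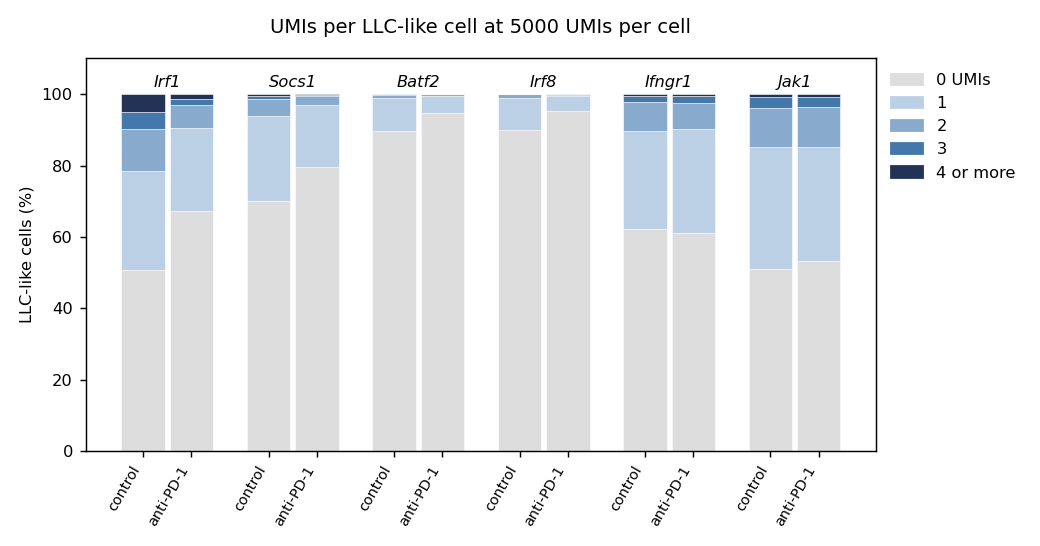
Share of LLC-like cells (percent) with 0, 1, 2, 3 or 4 and more UMIs of each gene after thinning every cell to 5000 UMIs, control and anti-PD-1. Cells without an Irf1 UMI make up 50.6% in control and 67.3% in anti-PD-1, while for Ifngr1 the shares are 62.2% and 61.1%.

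Irf8, a transcription factor that directs dendritic cell and monocyte development and also answers interferon gamma in macrophages (chromosome 8, 120736358 to 120756694), divided the classes. It was highest in dendritic cell-like cells (730 and 723 CPM, log2 ratio -0.01, -0.34 to 0.32, and -0.71 when thinned to 2000 UMIs per cell) and NK cell-like cells (699 and 1243 CPM, 0.83, 0.52 to 1.15). T cell-like cells were at 248 and 144 CPM (-0.78, -1.51 to -0.11), though at 2000 UMIs per cell the ratio was 0.76 from 29 and 9 UMIs. Macrophage-like cells were at 159 and 101 CPM (-0.65, -0.81 to -0.49). Monocyte-like cells, at 159 and 99.4 CPM (-0.68, -1.02 to -0.34), gave -0.01 with all listed markers in the naming rule. LLC-like cells were at 25.8 and 12 CPM (-1.10, -1.21 to -1.0). Within the 8 LLC-like clusters the ratio lay between -1.08 and -0.17, with an interval below 0 in 5, and with clusters weighted equally it was -0.77. That level was 16.2% and 11.8% of the macrophage-like one, where the summed macrophage markers stood at 3.54% and 1.75%. Among LLC-like cells with under 10 macrophage marker UMIs per 10000 the ratio was -0.95. The part of macrophage RNA in the LLC-like values was not tested.

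Socs1, the brake on the kinases (chromosome 16, 10782240 to 10785536), was lower in anti-PD-1 in 5 of the 6 classes where Irf1 was lower, and higher in lymphocytes. LLC-like cells were at 82.5 and 49.6 CPM (-0.73, -0.79 to -0.68), macrophage-like cells at 139 and 51.4 CPM (-1.44, -1.64 to -1.23) and monocyte-like cells at 232 and 123 CPM (-0.91, -1.21 to -0.61). Fibroblast-like cells were at 115 and 31.3 CPM (-1.88, -2.49 to -1.30) and dendritic cell-like cells at 229 and 120 CPM (-0.93, -1.64 to -0.23). In neutrophil-like cells, the sixth, it was at 188 and 91.9 CPM (-1.04, from 25 and 12 UMIs), with an interval that reached 0.01. T cell-like cells were at 225 and 367 CPM (0.71, 0.21 to 1.20) and NK cell-like cells at 142 and 246 CPM (0.79, 0.09 to 1.53). The NK cell-like interval includes the median gene of that class, at 0.18. The NK cell-like ratio was -0.04 with all listed markers in the naming rule, from 16 and 12 UMIs. The fibroblast-like ratio was -0.77 when cells were thinned to 2000 UMIs, from 11 UMIs in each library. The T cell-like ratio was 0.03 when cells were named by Leiden cluster and 1.35 when cells were thinned to 2000 UMIs, from 15 and 7 UMIs. Within LLC-like clusters the Socs1 interval lay below 0 in 5 of 8.

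Batf2, a transcription factor of interferon-activated macrophages (chromosome 19, 6140983 to 6172476), was lower in anti-PD-1 in LLC-like and macrophage-like cells. LLC-like cells were at 25.0 and 11.7 CPM (-1.09, -1.20 to -0.99) and macrophage-like cells at 33.4 and 13.6 CPM (-1.29, -1.71 to -0.89). Dendritic cell-like cells held 9 UMIs in control, against 0 in anti-PD-1. Monocyte-like cells held 26 and 16 UMIs, and T cell-like and NK cell-like cells at most 4. In LLC-like clusters the Batf2 interval lay below 0 in 6 of 8, and the highest level, 87.8 CPM in control, against 39.5 in anti-PD-1, was in cluster 1, where Irf1 was highest too.

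Set against all genes, 2 of 9 members (Irf8 and Batf2) were over 2-fold lower in LLC-like cells, where 4.2% of 11907 measured genes were, with at least 100 UMIs over both libraries. No member was over 2-fold higher, where 0.747% of genes were. In macrophage-like cells 3 of the 8 members measured (Irf1, Socs1 and Batf2) were over 2-fold lower, beside 1.77% of 9432 genes, and 0 were higher, beside 0.668%. In monocyte-like cells 1 of 7 (Irf1) was over 2-fold lower, beside 0.959% of 5006 genes, and 0 were higher, beside 0.699%. Irf1 in LLC-like cells stood just short of the 2-fold line, at 1.97-fold. Of 15 alternatives, Irf8 in LLC-like cells was not over 2-fold lower in 4 (up to -0.77) and Batf2 in 2 (up to -0.83). Of 12, Irf1 was not in 1 for macrophage-like cells (-0.98) and in 2 for monocyte-like cells (up to -0.46).

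Later target genes were mostly lower in LLC-like cells of anti-PD-1. Of 18, all measured, 12 were over 2-fold lower and 0 higher, with a median log2 ratio of -1.25 against a median gene of -0.01. Cxcl9, which draws T cells, was at 54.2 CPM in control, against 9.0 in anti-PD-1 (-2.59, -2.70 to -2.48). Gbp2, an interferon-induced GTPase, was at 306 and 59.2 CPM (-2.37, -2.41 to -2.33). In macrophage-like cells 6 of 17 were over 2-fold lower (median -0.84), led by Cxcl9 (-2.67) and Ciita (-2.18), the regulator of MHC class II genes. Ciita stood at 142 and 31.2 CPM there, against 10.1 and 2.63 CPM in LLC-like cells. The part of macrophage RNA in the LLC-like values of the later targets was not tested. These targets were not compared within clusters or under another naming of cells. In monocyte-like cells 2 of 17, Cxcl9 (-1.46) and Cd274 (-1.20), which encodes the ligand PD-L1, were over 2-fold lower, and 15 of 17 lay below the median gene (median -0.22). Cxcl10, which type I interferon also induces and which is singled out here after its values were seen, was at 0.08, 0.25 and 0.49 in the 3 classes. Gbp2 belongs to a family of near copies, whose reads may be shared among members. Among 12 signal transducers and brakes outside the set, the median was 0.01 in LLC-like cells. Of these, 1 was over 2-fold lower there, beside 4.2% of all measured genes, and 0 were over 2-fold higher. In macrophage-like cells Usp18, a brake on type I signalling, was over 2-fold higher, at 60.9 and 123 CPM (1.01, 0.81 to 1.22).

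Across 8 classes in 2 libraries (16 points), the genes most like each member in log2(CPM + 1) were found among genes with at least 200 UMIs. For Ifng they were Lef1 (Pearson r 0.97), Cysltr2 (0.96) and Klrc1 (0.95), and for Irf1 they included Zfp36l1 (0.80) and Morf4l1 (0.80). For Irf8 they were Id2 (0.92), Runx3 (0.92) and Herc3 (0.91). Socs1 was nearest to Stx6 (0.88), Psmb8 (0.87) and Ccnd3 (0.83), and Batf2 to Rcbtb2 (0.84), Pip4p2 (0.81) and Chchd1 (0.79). The points share libraries and classes of unequal depth, so these values only describe the pattern.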

How the data were processed

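The deposited values were raw UMI counts in a gene by barcode matrix, per the file headers, with no scaling. Cell Ranger 9.0.1 stands in the matrix headers, and Cell Ranger 7.0.1 and mm10 in the submitters' processing notes. The labels' protocol names a probe-based 10x Flex kit and also a 3' protocol. Capture can differ between genes, so levels of different genes are not on 1 scale.

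Kept were barcodes of 300 or more genes with no more than 20% of UMIs from mitochondrial genes. A class needed a minimum of marker UMIs per 10000 and of distinct markers (LLC-like: 5 and 3, T cell-like and NK cell-like: 10 and 2). Cells passing for several classes were set aside as mixed, which also stood for doublet removal, as no doublet caller was run. Macrophage or monocyte and T or NK ties went to the larger score. The members, markers and lists were chosen with earlier results of these data known. The thresholds, and 3 markers left out of naming, were set after looking at the data. The LLC minimum was raised from 2 to 3 distinct markers after member values under 2 had been seen, because shallow barcodes of the T cell cluster had been named LLC-like, of which most kept that name; results under 2 are among the alternatives. Cells lying near a threshold were counted: 163 control and 175 anti-PD-1 LLC-like cells had up to 1.25 times the minimum, and 182 and 194 unnamed cells at least 0.8 times it.

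UMIs were summed per class and library and scaled to CPM, with exact Poisson intervals for levels, conditional binomial intervals for ratios and Clopper-Pearson intervals for shares, at 95%, in scipy 1.17.1. On simulated independent Poisson counts, the model they assume, the ratio intervals were checked for their coverage. That check leaves out the clumping of UMIs within barcodes, so it cannot show coverage where UMIs clump. PCR and barcode effects are outside these intervals. Clusters (Leiden at resolution 1 in scanpy 1.11.5, on 40 components of 2000 variable genes with 15 neighbours) served as an alternative naming and to compare LLC-like cells. Named genes were all 9 members, the 3 most like genes for 5 of them (some genes are not reported here), and examples with large ratios from lists of inducers, transducers, later targets, type I receptor and cytotoxic genes. Endothelial-like cells, 64 and 32, were too few to compare. Only windows upstream of start sites were printed; 4 motifs were searched and all are reported.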

Additional observations from a re-analysis of the deposited data

Results flagged for a closer look

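Irf8 and Socs1 differed in direction between cell classes, each past 1.5-fold with counting intervals on opposite sides of 0. For Irf8 the log2 ratio of anti-PD-1 over control was 0.83 in NK cell-like cells, but -1.10 in LLC-like, -0.78 in T cell-like, -0.65 in macrophage-like, -0.68 in monocyte-like and -1.89 in fibroblast-like cells, the last from 16 and 5 UMIs. For Socs1 it was 0.71 in T cell-like and 0.79 in NK cell-like cells, but -0.73 in LLC-like, -1.44 in macrophage-like, -0.91 in monocyte-like, -0.93 in dendritic cell-like and -1.88 in fibroblast-like cells. Several of these depend on the naming or depth of cells. Irf8 was 0.76 in T cell-like cells thinned to 2000 UMIs, -0.01 in monocyte-like cells with all listed markers, and 0.36 in NK cell-like cells thinned to 2000 UMIs. Socs1 was 0.03 in T cell-like cells with Leiden naming and -0.04 in NK cell-like cells with all listed markers. The NK cell-like Socs1 interval, 0.09 to 1.53, also includes the median gene of that class, at 0.18. With 1 library per group the difference between classes was not tested.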

How the results depend on the processing

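No paired analysis was possible because each group holds 1 library and no result comes from a test. Irf1 kept a negative log2 ratio in LLC-like, macrophage-like and monocyte-like cells under every alternative run. In LLC-like cells it was -0.91 with clusters weighted equally. In macrophage-like cells it was -1.72 with Leiden naming, -1.43 at a doubled marker threshold, -1.50 without cells over 3 times the median UMI count, -1.57 with all listed markers, -1.43 thinned to 2000 UMIs, -1.28 with cells weighted equally and -0.98 with the median gene at 0. In monocyte-like cells it was -0.72 with Leiden naming and -0.46 with all listed markers. The Ifng ratio in T cell-like cells was negative in 13 of 13 alternatives, at -0.14 when thinned to 2000 UMIs. In NK cell-like cells it was 2.08 with Leiden naming and 2.09 without the richest barcodes; thinning to 2000 UMIs left 0 control UMIs and no value. The lymphocyte share of Ifng UMIs was 43.1% in control and 43.2% in anti-PD-1 with Leiden naming, 24.6% in control without the richest barcode in each of 3 classes, and 13.6% in anti-PD-1 with all listed markers. The alternatives with all listed markers, the lower LLC minimum, shared barcodes, macrophage or lymphocyte marker limits, equal clusters and richest barcodes left out were chosen after seeing the data. The cause of these shifts was not tested. Depth limits the T cell-like, NK cell-like, neutrophil-like and dendritic cell-like values, since the median cell of each held under 2000 UMIs.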
